A study of Mus musculus with 5 samples.

Results

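Genes of histone modifiers and chromatin remodellers were examined for Runx3-bound and H3K4me1-marked regions in NK cells (NKC) activated with IL-2. The members were the protein-coding genes of the GENCODE M1 annotation whose symbols begin with Kdm, Hdac, Sirt, Smarc, Chd, Brd or Setd and fit the numbering of these families. They were 72 of 22244 protein-coding genes, and 71 of them were among the 22214 genes on the 19 autosomes and chromosome X, where both peak lists have peaks. Kdm5d, the member on chromosome Y, was not analysed further, and the 2 annotated records of Hdac4 were joined into 1 gene. The 71 genes comprised 15 Kdm, 11 Hdac, 7 Sirt, 13 Smarc, 9 Chd, 7 Brd and 9 Setd genes. The rule uses the symbols and no peak counts, but these families were picked with earlier results of these data known.

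The cells were NK cells of the spleen of ICR mice, kept in culture for 7 days with 1000 units/ml of human recombinant IL-2, and the labels state that all were NKp46+. Chromatin was immunoprecipitated with an antibody to Runx3 in 2 libraries, with an antibody to H3K4me1 in 1 library and with non-immune serum (NIS) as control in 2 libraries. The authors joined the reads of the Runx3 libraries before calling peaks against NIS, so each list is a single measurement, no value below has an error between replicates, and no comparison between treatments or genotypes was possible. The lists give the position of each peak and no height, and the depth behind a peak cannot be read from them.

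Runx3 is a Runt-domain transcription factor of cytotoxic lymphocytes, and monomethylation of histone H3 at lysine 4 (H3K4me1) is a mark enriched at enhancers and at the borders of active promoters. Kdm genes encode lysine demethylases, Hdac and Sirt genes encode deacetylases that use zinc and NAD, respectively, and Setd genes encode proteins with the SET domain of methyltransferases. Smarc genes encode subunits of SWI/SNF (BAF) remodellers and their relatives, Chd genes encode remodelling ATPases with chromodomains, and Brd genes encode bromodomain proteins, which read acetylated lysines.

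Runx3 peaks lay in or within 5 kb of 37 of the 71 member genes, which is 52.1% (95% Wilson interval 40.7 to 63.3%), and in 28.9% of all protein-coding genes. H3K4me1 peaks lay in the same windows of 45 members, or 63.4% (51.8 to 73.6%), and of 39.8% of all genes. A Runx3 peak that overlapped an H3K4me1 peak by at least 1 bp was found in 21 members, or 29.6% (20.2 to 41.0%), and in 13.1% of all genes. A Runx3 peak centred within 1 kb of an annotated start (TSS) of the gene was found in 16 members, or 22.5% (14.4 to 33.5%), and in 13.3% of all genes. All 4 shares were above those of all genes, and these intervals, which cover counting error only, lay above the share of all genes. For the TSS share this held narrowly (14.4% beside 13.3%), and it did not hold with the annotated 5′ end as the only start. Of the members, 32 or 45.1% had peaks of both lists, beside 21.5% of all genes. H3K4me1 peaks alone were in 13 or 18.3%, beside 18.3%, and Runx3 peaks alone in 5 or 7.04%, beside 7.37%. The shares with 1 kind of peak alone were thus near those of all genes. The remaining 21 had no peak of either list, which is 29.6% beside 52.8% of all genes.

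The members were longer than most genes, and over all genes the shares with a Runx3 or H3K4me1 peak rose with gene length. The members' median length was 41.5 kb, beside 15.5 kb over all protein-coding genes. In the 14 members shorter than 20 kb, 9 or 64.3% had a Runx3 peak, where 20.5% of all genes of that length had one. In the 30 members of 20 to 60 kb 15 had one, where 36.1% of all such genes did, and in the 27 members over 60 kb the share was 48.1% beside 44.7%. H3K4me1 peaks were in 78.6%, 18 of 30 and 59.3% of the members of these lengths, beside 32.5%, 46.9% and 52.6% of all genes. For both kinds of peak the members' share was thus highest among the short genes, and the distance from all genes was widest there. A Runx3 peak at a TSS was in 28.6% of the short, 6 of 30 of the middle and 22.2% of the long members, beside 11.1%, 18.3% and 13.3% of all genes, which did not follow length in order. Per 100 kb of gene and flanks, members held 1.18 Runx3 and 3.98 H3K4me1 peaks, and all genes 0.819 and 2.47. Members also had more annotated starts, with a median of 6 beside 2. With the annotated 5′ end as the only start, 13 members or 18.3% had a Runx3 peak within 1 kb, beside 11.3% of all genes. The part of gene length and of the number of starts in the shares was not tested.

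**Figure D1:**
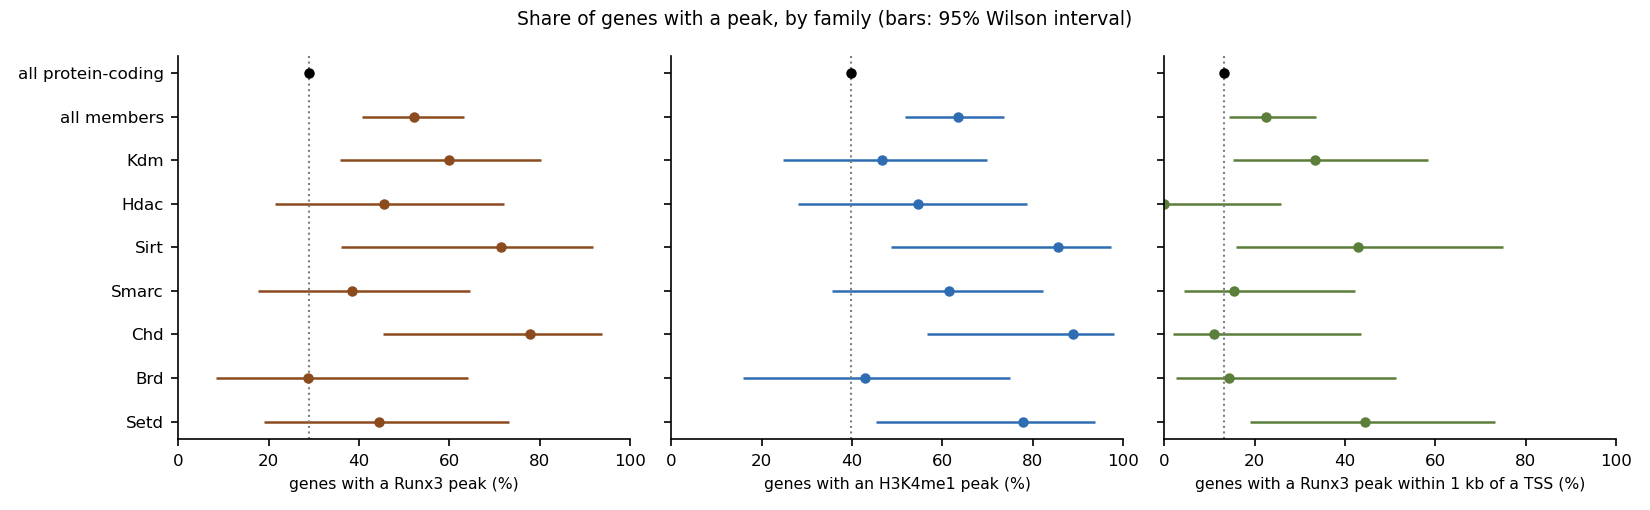
Share of genes with a Runx3 peak (left), an H3K4me1 peak (middle) or a Runx3 peak centred within 1 kb of a TSS (right), in %, for all protein-coding genes, all 71 members and each family. Points are shares, bars are 95% Wilson intervals, and the dotted line is the share over all protein-coding genes. The Chd and Sirt families lie farthest to the right for both kinds of peak, the Brd family lies near the line, and no Hdac gene had a Runx3 peak at a TSS.

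Over all protein-coding genes 28.9% had a Runx3 peak and 13.3% had one at a TSS, or 2952 of the 6417 bound genes. The counts of each family are given beside these shares. Runx3 peaks were found in 9 of 15 Kdm, 5 of 11 Hdac, 5 of 7 Sirt, 5 of 13 Smarc, 7 of 9 Chd, 2 of 7 Brd and 4 of 9 Setd genes. At a TSS the order changed, with 5 Kdm, 0 Hdac (95% interval up to 25.9%), 3 Sirt, 2 Smarc, 1 Chd, 1 Brd and 4 Setd genes. All 4 Runx3-bound Setd genes were thus bound at a TSS, and none of the 5 bound Hdac genes was. With 7 to 15 genes in a family the intervals of these shares overlapped, and no difference between families was tested.

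The 63 Runx3 peaks of the members numbered 16 in Kdm, 8 in Hdac, 9 in Sirt, 5 in Smarc, 17 in Chd, 3 in Brd and 5 in Setd genes. They were 437 to 2228 bp wide, with a median of 751 bp beside 704 bp over all 11676 Runx3 peaks. Introns held 39 of them, exons 6, the upstream flank 10 and the downstream flank 8. Most bound members had few peaks, since 25 had 1, 6 had 2, 4 had 3 and 2 had more. For 12 of the 63 peaks the closest TSS of any protein-coding gene belonged to another gene, so that their assignment to the member rests on position alone.

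**Figure D2:**
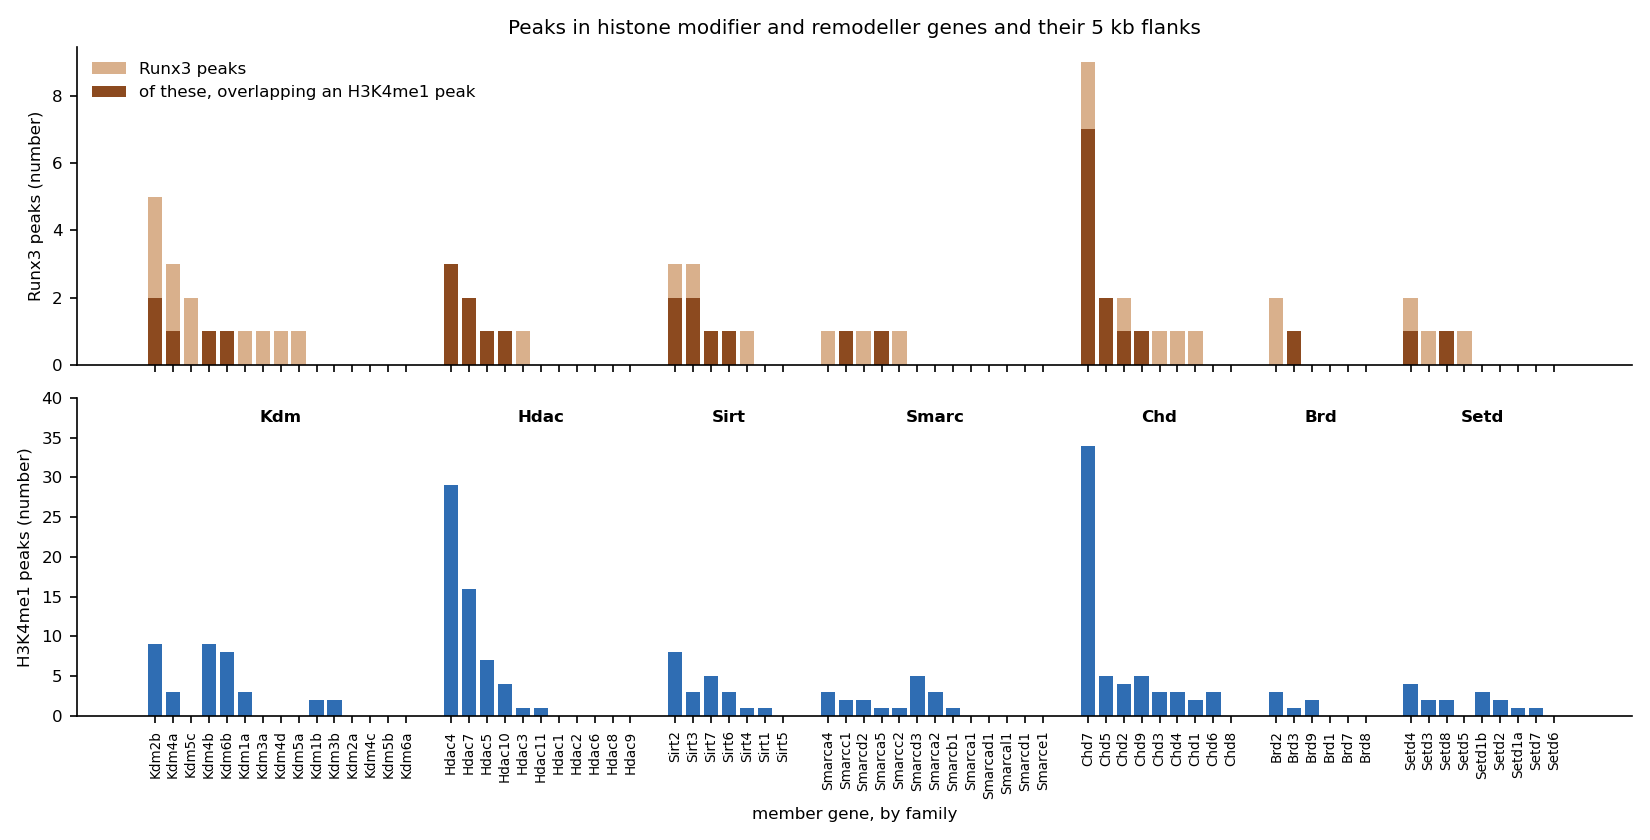
Number of Runx3 peaks (top; dark part, those that overlap an H3K4me1 peak) and of H3K4me1 peaks (bottom) in the member genes shown and their 5 kb flanks, ordered within families by the number of Runx3 peaks. Chd7 stands highest in both panels, with 9 Runx3 and 34 H3K4me1 peaks, followed for H3K4me1 by Hdac4 with 29 and Hdac7 with 16.

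The sequence at the Runx3 peaks is shown first for peaks at a TSS. As sets, these and the remote peaks differed in how often they held each form of the RUNX motif. The motif was searched as TGTGGT or TGTGGC and, with a CG inside, as TGCGGT or TGCGGC, on either strand, and stretches of the genome (mm9) are printed 5′ to 3′ on the strand of the motif, which is in capitals. For each family the stretch comes from the peak closest to a TSS that had a motif in a stretch outside annotated untranslated regions, so that closer peaks of Kdm and Smarc genes were passed over, and families are absent where there was none. Capitals mark only the motif that a stretch was taken around, and further RUNX motifs in it, as in that of Chd2, are in lower case.
Kdm2b (chr5:123464965-123465010, plus strand): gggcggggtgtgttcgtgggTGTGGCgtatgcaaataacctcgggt
Smarca4 (chr9:21420989-21421034, minus strand): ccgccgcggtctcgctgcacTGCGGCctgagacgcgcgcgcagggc
Chd2 (chr7:80682572-80682617, minus strand): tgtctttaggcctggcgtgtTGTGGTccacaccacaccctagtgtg
Brd2 (chr17:34259464-34259509, plus strand): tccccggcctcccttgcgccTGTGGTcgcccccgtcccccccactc
Setd4 (chr16:93604264-93604309, plus strand): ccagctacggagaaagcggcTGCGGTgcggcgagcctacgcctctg

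Stretches from the widest peak of each family away from its TSSs are shown in the same way. Hdac4, given last, is shown over 200 bp with every RUNX motif in capitals, which are 3 of the 6 in that peak. Peaks of Hdac5 and Kdm1a, among others, also held 6, and the central 200 bp of the Hdac5 peak held 5. The marked motifs alone do not show the difference between the sets. Of the 5 stretches at a TSS 2 mark TGTGGT and 1 marks TGTGGC, and the remote stretch of Kdm6b marks TGCGGC.
Kdm6b (chr11:69224428-69224473, minus strand): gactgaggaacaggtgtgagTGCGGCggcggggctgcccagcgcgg
Sirt2 (chr7:29565950-29565995, plus strand): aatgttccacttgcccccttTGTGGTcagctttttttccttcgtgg
Smarca5 (chr8:83266925-83266970, minus strand): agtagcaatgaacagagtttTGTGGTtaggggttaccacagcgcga
Chd3 (chr11:69181915-69181960, plus strand): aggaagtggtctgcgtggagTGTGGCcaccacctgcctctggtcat
Brd2 (chr17:34244191-34244236, minus strand): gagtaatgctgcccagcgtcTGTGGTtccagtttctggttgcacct
Setd4 (chr16:93586221-93586266, minus strand): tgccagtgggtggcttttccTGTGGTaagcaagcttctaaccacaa
Hdac4, with the densest run of motifs of the intronic peak with 6 of them, is shown over 200 bp (chr1:93961047-93961246, plus strand): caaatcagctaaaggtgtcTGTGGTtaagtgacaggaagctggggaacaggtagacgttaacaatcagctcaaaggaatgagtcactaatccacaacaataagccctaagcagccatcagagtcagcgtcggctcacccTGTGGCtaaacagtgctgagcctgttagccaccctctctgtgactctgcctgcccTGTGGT

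A RUNX motif was present in 62 of the 63 member peaks, or 98.4% (91.5 to 99.7%), beside 96.0% of all Runx3 peaks. The exception was the peak 127 bp from a TSS of Smarcd2, a BAF subunit. Such a short motif is common, and it was also in 79.7% of 123 windows as wide as the member peaks and 10 kb away from them. In the central 200 bp it was present in 54 member peaks, or 85.7%, beside 77.0% of all Runx3 peaks. Motifs of ETS factors (AGGAAA or AGGAAG, likewise CGGAAA or CGGAAG) were in 93.7% of member peaks, 91.4% of all Runx3 peaks and 84.6% of the windows beside member peaks. The AP-1 motif (TGACTCA or its reverse complement TGAGTCA) was in 30.2%, 26.2% and 10.6% of these, respectively.

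The motif forms split by distance to the TSS. Of the 18 member peaks centred within 1 kb of a TSS, 13 held a form with CG (TGCGGT or TGCGGC) and 10 a form without it. Of the 45 remote peaks, which lay farther from the TSSs of their own member gene, 17 held a form with CG and 43 a form without it. TGCGGC was in 66.7% of member peaks at a TSS and in 24.4% of the remote ones. Over all Runx3 peaks it was in 1375 of 2751 within 1 kb of any protein-coding TSS and in 9.77% beyond it. TGTGGT was in 44.4% at a TSS and 77.8% of remote member peaks, beside 51.1% and 83.5%. Base composition moved with these counts, as the median ratio of observed to expected CpG was 0.746 in member peaks at a TSS and 0.217 in the remote ones, and its part in the motif counts was not tested.

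H3K4me1 overlap also followed distance. Of the 18 peaks at a TSS, 2 or 11.1% (3.10 to 32.8%) overlapped an H3K4me1 peak, beside 18.7% of all Runx3 peaks within 1 kb of a protein-coding TSS. Of the 45 remote peaks, 32 or 71.1% (56.6 to 82.3%) did. The share was 57.5% over all Runx3 peaks beyond 1 kb of any protein-coding TSS, a set that also holds peaks outside gene windows. The intervals of the members' shares at and away from a TSS did not overlap. The peaks at a TSS that overlapped H3K4me1 were those of Setd8, which monomethylates histone H4, and Sirt6, a nuclear deacetylase. Of the 16 others, 13 lay more than 1 kb from the next H3K4me1 peak, with a median gap of 3462 bp, and the closest was a peak of Kdm4a with a gap of 71 bp. Among the remote peaks, 4 were within 1 kb of a TSS of another gene, and 0 of these overlapped H3K4me1. They were the peaks near Chd4, Hdac3, Kdm4a and Smarcc2, whose centres were 49 bp from a TSS of Nop2, 50 bp from one of Diap1, 143 bp from one of St3gal3 and 352 bp from one of Myl6, respectively.

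**Figure D3:**
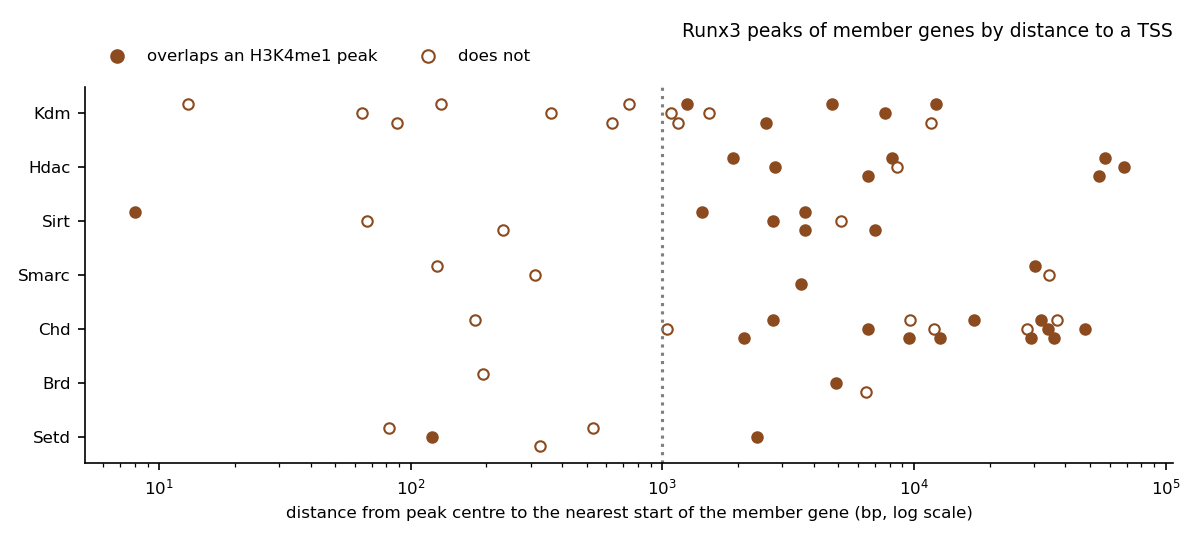
Distance from the centre of each of the 63 Runx3 peaks to the nearest TSS of its member gene (bp, log scale), by family. Filled points overlap an H3K4me1 peak, open points do not, and the dotted line marks 1 kb. Of the 18 peaks to the left of the line 2 are filled, and of the 45 to the right 32 are filled.

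Around the annotated 5′ end itself, a Runx3 peak covered the start of 12 of the 71 members, or 16.9%, beside 9.38% of all protein-coding genes. H3K4me1 peaks covered the start of 2.82% of members and 2.72% of all genes. At 1250 bp downstream H3K4me1 covered 14.1% of members and 4.85% of all genes, and at 4000 bp upstream 9.86% and 2.08%. These distances were picked for having the members' highest coverage downstream and upstream of the start, respectively. At 2000 bp upstream and 3000 bp downstream the coverage of members was 2.82%, as at the start. H3K4me1 peaks on both sides within 5 kb were found in 8 members, or 11.3%, beside 7.56% of all genes.

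**Figure D4:**
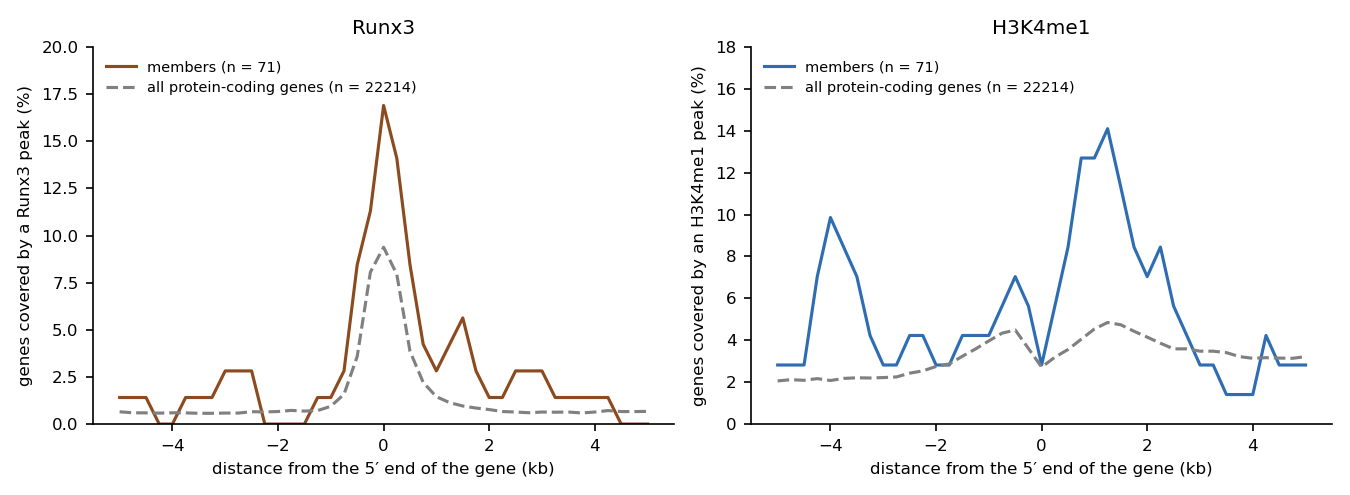
Share of genes (%) whose position at a given distance from the annotated 5′ end (kb, negative upstream) is covered by a Runx3 peak (left) or an H3K4me1 peak (right), for 71 members (solid) and 22214 protein-coding genes (dashed), in steps of 250 bp. Runx3 is highest at the start, where it covers 16.9% of members, while H3K4me1 covers 2.82% there and is highest at 1250 bp downstream.

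Among the lysine demethylases, Kdm2b had the most Runx3 peaks. Kdm2b demethylates lysine 36 of histone H3 and brings a Polycomb complex to CpG islands. Its 144 kb on chromosome 5 held 5 Runx3 and 9 H3K4me1 peaks. Of the Runx3 peaks 3 were within 1 kb of different TSSs, at 88, 132 and 734 bp, and off H3K4me1, while those at 1257 and 4730 bp from a TSS overlapped H3K4me1. The peak at 132 bp was also 126 bp from a TSS of Orai1, a calcium channel gene read in the opposite direction, so position does not say which gene it belongs to.

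The Kdm4 genes encode demethylases of lysines 9 and 36 of histone H3. Kdm4a had 3 Runx3 peaks, at 631 bp from a TSS, at 7668 bp and past its 3′ end, and the one at 7668 bp was the only one on H3K4me1. Kdm4b had 1 Runx3 peak past its 3′ end, on H3K4me1, and 9 H3K4me1 peaks. Kdm4d had 1 Runx3 peak 1159 bp from a TSS and no H3K4me1 peak, while Kdm4c had neither.

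The Kdm5 genes, demethylases of trimethylated lysine 4, had Runx3 at the start, where they were bound, with no H3K4me1. The peak of Kdm5a was centred 13 bp from a TSS, and Kdm5c had peaks 64 bp and 1079 bp from a TSS. Neither gene had an H3K4me1 peak in its window, and Kdm5b had no peak of either list. Kdm5c was the only 1 of the 5 members on chromosome X with a Runx3 peak, and none of the 5 had H3K4me1. Over all genes of chromosome X the shares were 4.42% and 3.13%, while on the autosomes 6376 of 21287 genes had a Runx3 peak and 41.4% an H3K4me1 peak.

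Kdm6b, which removes trimethylation of lysine 27 of histone H3, was compact and densely marked. Its 15.2 kb and flanks held 8 H3K4me1 peaks that covered 25.9% of the window, with 4 of them centred in the 5 kb upstream of the start. The 1 Runx3 peak, in an intron 2581 bp from a TSS, was the widest of all member peaks at 2228 bp. Kdm6a, its counterpart on chromosome X, had no peak. Kdm3a, a demethylase of lysine 9, had 1 Runx3 peak 361 bp from a TSS and no H3K4me1 peak within 122597 bp of it. Kdm1a, a demethylase of mono- and dimethylated lysine 4, had 1 Runx3 peak 1539 bp from a TSS and 3 H3K4me1 peaks, without overlap.

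The deacetylases are given by class, with 1 to 4 genes in a class and no test between classes. Per 100 kb of gene and flanks, the Hdac genes together held 0.649 Runx3 and 4.7 H3K4me1 peaks, and all genes 0.819 and 2.47. The family was thus below all genes in Runx3 peaks by this measure and above them in H3K4me1 peaks. The class IIa genes Hdac4, Hdac5, Hdac7 and Hdac9 encode deacetylases that shuttle between nucleus and cytoplasm and act with MEF2 factors, and they held 6 Runx3 and 52 H3K4me1 peaks in windows of 828 kb in all. Each of the 6 Runx3 peaks was in an intron and overlapped H3K4me1, and none was at a TSS. Hdac4, which spans 220 kb, had 3 Runx3 peaks within introns, 68197, 83954 and 87007 bp downstream of its 5′ end. These were among 29 H3K4me1 peaks, all but 2 of them centred 42186 to 97537 bp downstream of the 5′ end, which covered 12.3% of the window. Hdac7 had 2 Runx3 peaks 23048 and 27732 bp downstream of its 5′ end, among 16 H3K4me1 peaks that covered 27.5% of its window. The peak at 23048 bp overlapped H3K4me1 by 55 of its 640 bp. Hdac5 had 1 Runx3 peak among 7 H3K4me1 peaks. Hdac9, the longest member at 481 kb, had no peak of either list.

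The class I genes are Hdac1, Hdac2 and Hdac3, whose products are catalytic subunits of nuclear corepressor complexes, and Hdac8, and they held 1 Runx3 and 1 H3K4me1 peak in windows of 334 kb in all. Both belonged to Hdac3, and the Runx3 peak was the one past its 3′ end, at the TSS of Diap1. Of class IIb, Hdac10 had 1 Runx3 peak 2813 bp upstream, on H3K4me1, with 4 H3K4me1 peaks over 28.4% of a short window, and Hdac6 had none. Hdac11 of class IV had 1 H3K4me1 peak.

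**Figure D5:**
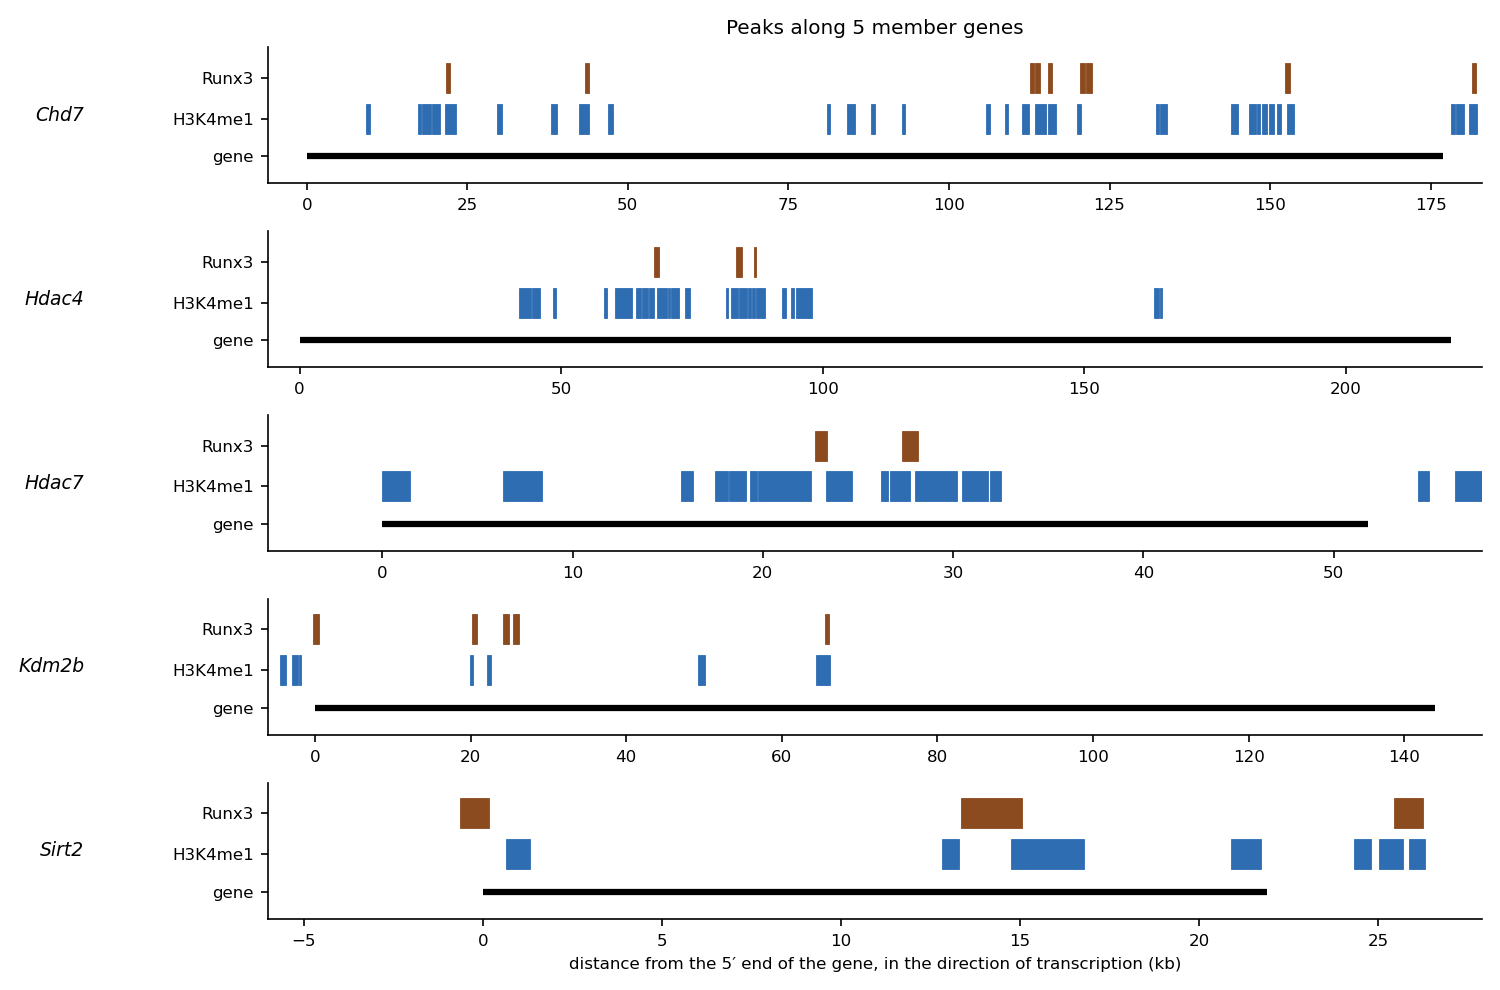
Positions of Runx3 (brown) and H3K4me1 (blue) peaks along Chd7, Hdac4, Hdac7, Kdm2b and Sirt2, by distance from the annotated 5′ end in kb in the direction of transcription, each gene on its own scale with 5 kb flanks; the black line is the gene. In Hdac4 and Hdac7 the Runx3 peaks lie inside the gene among clusters of H3K4me1, in Chd7 8 of 9 lie inside the gene and 1 past its 3′ end, and in Kdm2b and Sirt2 a Runx3 peak also lies at the 5′ end without H3K4me1.

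Of the 7 sirtuin genes 5 were Runx3-bound and 6 had H3K4me1. Sirt2, a mainly cytoplasmic deacetylase, had 3 Runx3 and 8 H3K4me1 peaks, with 1 Runx3 peak 232 bp from a TSS. That peak was centred 11 bp from a TSS of Nfkbib, an inhibitor of NF-kB read in the opposite direction. Its other 2 Runx3 peaks, in an intron and past the 3′ end, overlapped H3K4me1. Sirt3, the main mitochondrial deacetylase, also had 3 Runx3 peaks, of which the peak 67 bp from a TSS was off H3K4me1 and those at 1433 and 3706 bp were on it. The overlap of the peak at 1433 bp was slight, at 20 of its 694 bp.

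Sirt6 had 1 Runx3 peak 8 bp from a TSS, on H3K4me1, and Sirt7, a nucleolar deacetylase, had 1 peak 2746 bp upstream, on H3K4me1. A TSS of Mafg was closer to the Sirt7 peak, at 2162 bp. The window of Sirt7 held 5 H3K4me1 peaks over 31.3% of its length, the highest coverage of any member. Sirt4 of the mitochondria had 1 Runx3 peak 5152 bp upstream and 126 bp from an H3K4me1 peak. Sirt1 had 1 H3K4me1 peak and no Runx3 peak, and Sirt5 had neither.

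Of the 13 Smarc genes 5 or 38.5% (17.7 to 64.5%) had a Runx3 peak, beside 28.9% of all protein-coding genes. Smarca4 (Brg1), an ATPase of BAF complexes, had 1 Runx3 peak 312 bp from a TSS, off H3K4me1, with 3 H3K4me1 peaks elsewhere. Smarca2 (Brm), the alternative ATPase, had 3 H3K4me1 peaks and no Runx3 peak. Smarca5 (Snf2h), the ATPase of ISWI complexes, had 1 Runx3 peak 3549 bp upstream, on H3K4me1, and Smarca1, its relative on chromosome X, had none. Smarcc1, a core scaffold of BAF, had 1 intronic Runx3 peak on H3K4me1, and Smarcc2, its paralogue, had 1 past its 3′ end, next to Myl6.

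Smarcd2 had its Runx3 peak at a TSS, 602 bp from the next H3K4me1 peak. Smarcd3, another of the alternative BAF60 subunits, was the only member with 5 or more H3K4me1 peaks and no Runx3 peak, and its 5 peaks covered 19.5% of the window. Smarcd1, the remaining BAF60 gene, had no peak.

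The Chd genes held 17 Runx3 and 59 H3K4me1 peaks. Chd7, a remodeller whose loss causes the developmental disorder CHARGE syndrome, accounted for 9 and 34 of these. It spans 177 kb on chromosome 4, and by number of Runx3 peaks it ranked 17 of 22214 genes, with ties sharing the best rank, and by H3K4me1 peaks 34. Of its Runx3 peaks 8 were in introns and 1 in the downstream flank, 22055 to 181803 bp from the 5′ end. They included a group of 5 between 112890 and 121863 bp. Of the 9, 7 overlapped H3K4me1, and the other 2 were 194 and 851 bp from it. H3K4me1 covered 28283 bp, or 15.1% of the window, and no peak of either list was at the 5′ end.

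Chd3, Chd4 and Chd5 encode the alternative ATPases of the NuRD complex, and each had Runx3 and H3K4me1 peaks. Chd5 had 2 Runx3 peaks, both intronic and on H3K4me1, of which 1 lay in the widest H3K4me1 peak of any member at 3336 bp. Chd3 had 1 Runx3 peak 1047 bp from a TSS, and Chd4 had the peak at the TSS of Nop2, both off H3K4me1. Chd2, which acts at transcribed genes, had a Runx3 peak 180 bp from a TSS that was off H3K4me1 and a second that was on it. Chd1 had 1 intronic peak 179 bp from an H3K4me1 peak, and Chd9 had 1 intronic peak on H3K4me1. Chd6 had 3 H3K4me1 peaks and no Runx3 peak.

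Among the bromodomain genes, peaks were nearly limited to Brd2 and Brd3, BET proteins that bind acetylated histones at transcribed genes. Brd2 had Runx3 peaks 193 bp upstream of its 5′ end and past its 3′ end, both off H3K4me1, and 3 H3K4me1 peaks. Brd3 had 1 intronic Runx3 peak on H3K4me1. Brd1, Brd7 and Brd8 had no peak of either list. Brd9, of a BAF variant, had 2 H3K4me1 peaks.

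In the Setd family, Setd3, which methylates a histidine of actin, had a Runx3 peak 326 bp from a TSS, Setd4 had one at 82 bp, Setd5 one at 530 bp and Setd8 one at 122 bp. The peak of Setd4 at the TSS held 7 RUNX motifs, the most of any member peak, and a second peak of this gene, on H3K4me1, held 6. That of Setd5 was the widest member peak at a TSS, at 1747 bp, and the gene had no H3K4me1 peak. The peak of Setd8 was at an internal TSS, 6652 bp downstream of the annotated 5′ end. Setd1a and Setd1b, methyltransferases of lysine 4, and Setd2, the main enzyme for trimethylated lysine 36, had 1, 3 and 2 H3K4me1 peaks, respectively, and no Runx3 peak. Setd7 had 1 H3K4me1 peak.

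The members with no peak of either list included Brd1, Brd7, Brd8, Chd8, Hdac1, Hdac2, Hdac6, Hdac8, Hdac9, Kdm2a, Kdm4c, Kdm5b, Kdm6a, Setd6, Sirt5, Smarca1, Smarcad1, Smarcal1, Smarcd1 and Smarce1. They included general nuclear enzymes and subunits such as Hdac1, Hdac2 and Smarce1. Others of this kind, such as Smarca4 and Smarcc1 of BAF, had a Runx3 peak. Absence from the lists says only that no peak was called at this depth.

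Runx3 and H3K4me1 peaks often occurred in the windows of the same members. Of the 26 members without H3K4me1, 5 or 19.2% had a Runx3 peak, of the 33 with 1 to 4 H3K4me1 peaks 21 or 63.6%, and of the 12 with 5 or more 11 or 91.7%. Over all protein-coding genes these shares were 12.3%, 46.1% and 86.8%, so the members followed the order of all genes. The shares with either kind of peak rose with gene length over all genes, and the part of length in this order was not tested. The H3K4me1 peaks were concentrated in few genes, as Chd7, Hdac4 and Hdac7 held 79 of 213, or 37.1%. Of the 213, 44 or 20.7% overlapped a Runx3 peak, beside 19.9% of all H3K4me1 peaks.

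Of 51 other chromatin genes, among them partners in the same complexes, 28 or 54.9% had a Runx3 peak, 32 or 62.7% an H3K4me1 peak and 17 or 33.3% a Runx3 peak at a TSS. The members' shares were 52.1%, 63.4% and 22.5%, those of all protein-coding genes 28.9%, 39.8% and 13.3%, and no difference between the lists was tested. Runx3 peaks were in 7 of 15 genes of BAF and PBAF partners, 5 of 9 of NuRD, 7 of 9 of CoREST, Sin3 and NCoR, 4 of 5 of PRC2 and 3 of 4 lysine 4 methyltransferases. Of the histone acetyltransferases, which oppose the deacetylases, 2 of 9 or 22.2% had a Runx3 peak, near the 28.9% of all genes, and 0 of 9 had one at a TSS. For these groups of 4 to 15 genes no intervals were computed, and no difference from all genes was tested. Arid1b, a BAF subunit, had 8 Runx3 peaks, of which 6 were on H3K4me1.

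Markers of the cell type were looked up in the same lists, where binding stands in for no expression value. Of 12 NK cell genes 11 had a Runx3 peak and 9 had one at a TSS, Ncr1, Klrb1c and Prf1 among them, while Klrd1 had no peak of either list. Runx3 peaks were also in 1 of 4 B cell, 2 of 4 T cell and 2 of 4 myeloid markers, with 0 at a TSS in each list. With 4 genes a list and 28.9% of all genes bound, 13.3% at a TSS, these counts do not set the other cell types apart from all genes. The whole Runx3 list held 11676 peaks and the H3K4me1 list 34204, of which 60 and 51, respectively, were on chromosome X.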

How the data were processed

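ChIP-seq of Runx3 (2 libraries), H3K4me1 (1 library) and NIS (2 libraries) was analysed from the 2 peak lists. The authors used ELAND for alignment to mm9, discarded reads that aligned to several places, joined the repeats and ran MACS with NIS as control after scaling down the larger dataset. What they deposited per peak is its position in bp. The lists have no height, score or p-value and are not split by library. The labels and the methods differ on the antibody volume and on the number of H3K4me1 repeats.

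Starts, counted from 0 in the lists, are given from 1. Genes were GENCODE M1 on the same genome build. Records of 1 symbol closer than 100 kb were joined. A peak counted for a gene when it overlapped the gene or its 5 kb flanks by 1 bp, and for a TSS when its centre was within 1 kb. Shares carry 95% Wilson intervals, and no test was made, since each list is 1 measurement. Named were up to 5 members per family with the most Runx3 peaks, all members bound at a TSS, those with 5 or more H3K4me1 peaks and no Runx3 peak, and, without values, those with no peak. Some genes that the rule or the lists cover are counted but not reported here by name. Hdac11, Kdm4c, Brd9, Chd6, Setd7 and other members named beyond that rule were chosen after their values were seen. Sequences came from the motif nearest to the peak centre, passing over annotated untranslated regions, a condition added after seeing the data. The members and gene lists were chosen with earlier results of these data known.

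Alternatives were other flanks, peak centres, wider peaks only, other overlaps, the GREAT rule, other TSS settings, joined peaks and the central 200 bp. The assignment of peaks was tested on simulated data. Software was matplotlib 3.10.9, numpy 2.4.6, pandas 2.3.3, pysam 0.24.0, python 3.11.15 and samtools 1.23.1.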

Additional observations from a re-analysis of the deposited data

How the results depend on the processing

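Of the 27 alternative values, 24 kept within 1.5 times the reported count or within the interval of the reported share. The number of Runx3 peaks in member windows fell from 63 to 41 with only peaks at least as wide as the median, the share overlapping H3K4me1 fell from 54.0% to 34.9% when H3K4me1 had to cover 50% of the peak, and the share with a RUNX motif fell from 98.4% to 85.7% in the central 200 bp. Members with a Runx3 peak numbered 30 or 42.3% without flanks, beside 23.2% of all genes. They numbered 41 or 57.7% both with flanks of 20 kb and under the GREAT rule, beside 41.2% and 42.2% of all genes, respectively. In the main setting the shares were 52.1% and 28.9%. No paired analysis was possible because the lists were called on joined reads and no test was made, and no library could be left out for the same reason. The lists hold no peak scores, so a stricter list was taken by width.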
